A study of Rattus norvegicus with 6 samples.

Results

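The genes described here are 41 rat liver genes of fatty acid oxidation and its control by the nuclear receptor PPAR alpha, out of 15284 genes that could be named on the array. They are given by name, and their probes were found through the RefSeq accession of each probe, with no threshold on a measured value. All 41 were found, on 63 probes. They were sorted by known function into 20 genes of mitochondrial beta-oxidation, 10 of peroxisomal oxidation, 3 of omega-oxidation and 8 of fatty acid activation, binding, uptake and storage.

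Liver RNA came from 9-week-old male Sprague-Dawley rats of the outbred stock Crl:CD(SD), 1 rat on each array. Before death 3 rats were anaesthetised with isoflurane, a volatile drug that is breathed in, and 3 with CO2/O2, a mixture of gases that makes rodents unconscious. Every rat, whichever its anaesthesia, had received corn oil, itself a load of dietary fat, at 5 mL/kg/day. The labels give its length as 3 days in one place and 9 weeks in another. No rat without corn oil and none without anaesthesia was measured, so neither kind of anaesthesia can be called the unaffected state.

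All values are log2 signal relative to the 75th percentile of the same array, so that 0 is that percentile and a difference of 1 is 2-fold. Differences are isoflurane minus CO2/O2. Between 53.4% and 62.3% of the 61657 probes were well above background per array, and no spot was saturated. All 8 hepatocyte markers, among them Alb and Ttr, were well above background on all 6 arrays, which matches the labelled tissue. The arrays lay on 1 slide. Row and place on it were read from the names of the scanner output, since the labels do not give them. By these names, the 3 CO2/O2 arrays and isoflurane 1 were in one row and isoflurane 2 and 3 in the other. Anaesthesia and place on the slide therefore overlap in large part, and only isoflurane 1 allows a comparison within a row.

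Fatty acids enter hepatocytes, are joined to coenzyme A and are either stored or burned. Mitochondria take up long chains through the carnitine shuttle and shorten them by beta-oxidation, which feeds ketone body synthesis. Peroxisomes shorten very long and branched chains, and Cyp4a enzymes of the endoplasmic reticulum oxidise the far (omega) end. PPAR alpha, which binds fatty acids and pairs with the retinoid X receptor, switches on genes of all these routes in fasting and after peroxisome proliferators. It binds a direct repeat of a short motif with 1 base between the copies. Rodent liver is known for its strong response to such compounds.

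Promoter windows, each from 250 bases before to 50 bases after a gene's start, were taken from RefSeq for the rat assembly GRCr8 and were held for 36 of the 41 genes. They are shown because the members share PPAR alpha as a known regulator, and they were searched on both strands for AGGTCANAGGTCA, with no other motif searched. An exact copy was found in 0 members and in 0.0538% of all 33469 windows. With up to 1 mismatch, 2 members (5.56%) held it, against 0.439% of all windows. With up to 2 mismatches it was 7 members (19.4%) against 3.77% of all windows. The 7 were Fabp1, Acadvl, Crat, Creb3l3, Etfa, Echs1 and Slc25a20, of which 5 are among the 17 mitochondrial genes with a window and 0 among the 10 peroxisomal genes. The match in Slc25a20 lay after the gene's start and the others before it. A match of these letters is a description of the window and not a binding site. Base composition was not matched between the members' windows and the rest. The windows below, 5′ to 3′ on the gene's own strand with the match in capitals, are those with up to 1 mismatch, and that of Crat, whose values are described further on.
Fabp1 (chr4:104749243-104749295, plus strand, 1 mismatch, read on the opposite strand): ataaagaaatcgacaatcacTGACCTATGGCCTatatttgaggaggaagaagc
Acadvl (chr10:55236706-55236742, minus strand, 1 mismatch): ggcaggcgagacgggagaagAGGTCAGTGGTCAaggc
Crat (chr3:34087290-34087342, minus strand, 2 mismatches): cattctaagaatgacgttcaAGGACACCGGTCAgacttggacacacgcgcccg

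No fatty acid oxidation gene passed the test between the kinds of anaesthesia, which with 3 rats per group does not show equal levels. The limma confidence interval stayed within 2-fold either way in 35 of the 41 members (85.4%), against 90.5% of all genes. In the rest, among them Cd36, Acot1 and Cyp4a2, the interval reached beyond 2-fold. Of the 41 members, 0 had an adjusted p under 0.05 in limma with Benjamini-Hochberg adjustment over all probes, where 0 of the 10609 genes tested did (0%). The smallest adjusted p of a member was 0.382, for Abcd2, and the next 0.460, for Acsl5. At an unadjusted p under 0.05 there were 4 members, or 9.76%, against 7.58% of all genes. These 4, Crot, Acsl5, Cd36 and Abcd2, were all lower after isoflurane, a direction in which 4.85% of all genes were counted, and 0 members were higher, where 2.72% of all genes were. Abcd2 entered the test only through its CO2/O2 arrays, so its direction follows from the filter. With signal above background required on all 6 arrays, or with no filter, the count was 3. Without isoflurane replicate 3 the count was 7 (17.1%, against 7.43% of all genes), as Acot1, Crat and Pex11a joined. The groups did not overlap in 4 members (9.76%), against 14.2% of all genes. Without isoflurane replicate 3 these shares were 34.1% and 26.3%. A positive difference was found in 18 members and a negative one in 23, and 47.1% of all genes had a positive one. The median difference was -0.04 over the members and -0.01 over all genes.

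**Figure D1:**
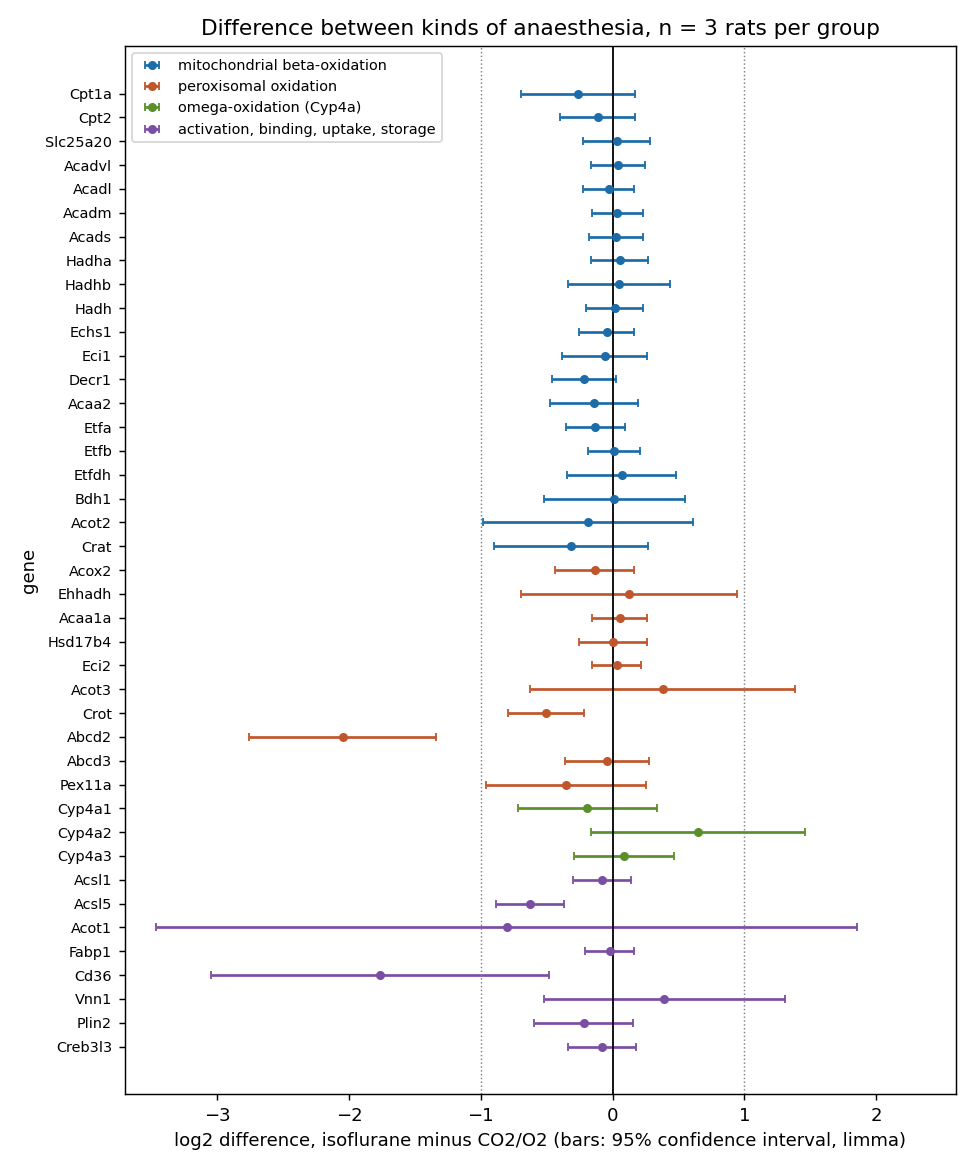
Log2 difference between isoflurane and CO2/O2 (x axis) for each of the 41 genes (y axis), coloured by class, with 95% confidence intervals from limma and n = 3 rats per group; dotted lines mark a 2-fold difference either way. The 20 mitochondrial genes sit between -0.32 and 0.07 and each interval stays within 2-fold, whereas Abcd2, Cd36 and Acot1 sit farthest to the left.

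Of the genes that bring fatty acids into the cell and make them ready, Cd36 and Acsl5 had small unadjusted p values, and the abundant hepatocyte genes of the group were level. Over the 8 genes, 7 had a negative difference and the median was -0.15, while 47.1% of all genes had a positive difference. Differences of 2-fold either way lay outside the 95% confidence intervals, which are not adjusted for the number of genes, in 5 of the 8 (62.5%), against 90.5% of all genes.

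Cd36, a membrane protein that takes up long-chain fatty acids in several cell types, gave 4.57, 4.07 and 2.83 in CO2/O2 rats 1 to 3 and 2.86, 1.72 and 1.59 in isoflurane rats 1 to 3. Isoflurane 1 lay just above CO2/O2 3, so the groups touched. The difference was -1.76 (SE 0.53, 3.39-fold lower, unadjusted p = 0.0147, limma adjusted p = 0.588). All 3 probes of the gene gave a like difference, from -1.76 to -1.52. The CO2/O2 arrays were at places 1 to 3 of row 1, isoflurane 1 at place 4, and isoflurane 2 and 3 at places 1 and 2 of row 2. Read row by row, the values fell at each step except from CO2/O2 3 to isoflurane 1. This order is also that of the groups. Within the row that holds both groups, the difference was -0.96 with an unadjusted p of 0.194 in limma. Markers of Kupffer cells, the liver's macrophages, which also carry Cd36, had a similar order, except that CO2/O2 3 lay above isoflurane 1. All 9 of 9 had a negative difference (median -0.37) and none was at background. At an unadjusted p under 0.05 in limma, 6 were lower (66.7%), against 4.85% of all genes. Their mean, relative to the mean over arrays, was 0.38, 0.25 and -0.03 after CO2/O2 and -0.12, -0.23 and -0.24 after isoflurane. All 3 erythroid markers tested were lower too (median -0.45). The median was -0.06 over 5 markers of sinusoidal endothelium and 0.01 over 6 of stellate cells. Of the adipocyte markers, Adipoq and Lep were well above background on 0 arrays, and Fabp4, on 5 arrays, had a positive difference of 0.86 (SE 0.31, adjusted p = 0.637 in limma), opposite to Cd36. In whole liver, fewer cells of a type and less RNA per cell cannot be told apart. The part of Kupffer cells, of other cell types and of place on the slide in the result for Cd36 was not tested.

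Acsl5, an enzyme that joins long-chain fatty acids to coenzyme A, gave 5.02, 4.70 and 4.76 after CO2/O2 and 4.22, 4.21 and 4.16 after isoflurane. All isoflurane rats were lower than all CO2/O2 rats, and they lay close together. The difference was -0.63 (SE 0.11, 1.55-fold lower, limma adjusted p = 0.460). It was -0.60 within the shared slide row and kept an unadjusted p under 0.05 with each array left out. Acsl1, the main liver enzyme of the same family, did not share the pattern, at -0.08 (SE 0.09). Its 4 probes differed in sign, from -0.08 to 0.08.

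Fabp1, the abundant fatty acid binding protein of liver cytosol, had one of the steadiest signals, between 9.19 and 9.31 on the 6 arrays. Its difference was -0.02 (SE 0.08), and its second probe gave 0.00. Creb3l3, a transcription factor of the fasting liver that works with PPAR alpha, differed by -0.08 (SE 0.11). Plin2, a coat protein of lipid droplets, differed by -0.22 (SE 0.16). Vnn1, a pantetheinase and a sensitive PPAR alpha target, gave 3.62, 4.05 and 3.41 after CO2/O2 and 3.59, 3.75 and 4.93 after isoflurane. Isoflurane 3 alone stood above the rest, and the difference was 0.39 (SE 0.38).

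Acot1, a cytosolic thioesterase that splits acyl-CoA and is a strong PPAR alpha target, varied more than any other member. It gave 2.94, 3.60 and 1.37 after CO2/O2 and 0.13, 1.21 and 4.15 after isoflurane. The highest and the lowest rat were both in the isoflurane group and were 16.1-fold apart. The SD within groups was 1.68, above that of 99.7% of all genes tested. The difference, -0.80 (SE 1.1), was therefore smaller than its error, and its interval ran from -3.46 to 1.85. It was -1.96 (unadjusted p = 0.0389, adjusted p = 0.633) without isoflurane 3 and -2.50 (unadjusted p = 0.115) within the shared slide row, where isoflurane 1 is the lone isoflurane rat.

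**Figure D2:**
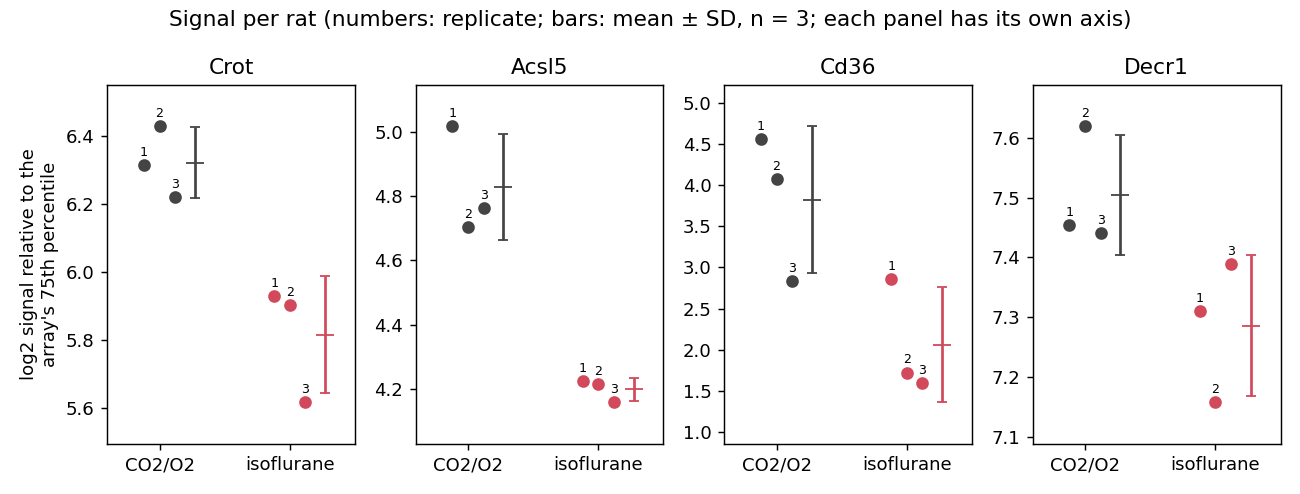
Log2 signal relative to the array's 75th percentile (y axis) in each rat for the 3 members above background in both groups with unadjusted p under 0.05, Crot, Acsl5 and Cd36, and for Decr1, by anaesthesia (x axis); points are rats with their replicate number, bars are mean ± SD, and each panel has its own axis, not starting at 0. The groups are apart in Crot, Acsl5 and Decr1 and touch in Cd36, where isoflurane 1 (2.86) lies above CO2/O2 3 (2.83).

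Mitochondrial beta-oxidation was the steadiest of the classes. All 20 genes were well above background on all 6 arrays and above the arrays' 75th percentile, as 57.1% of all genes tested were. The median difference was -0.01, with 10 genes above and 10 below 0. With arrays scaled to their median instead, it was -0.07, where the median over all probes tested was -0.06. The even split therefore depended on the scaling. An unadjusted p under 0.05 was found in 0 of 20, against 7.58% of all genes. The 95% confidence interval stayed within 2-fold either way in all 20, against 90.5% of all genes, so differences of that size lay outside each gene's own interval.

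The 2 largest differences of the class belonged to carnitine acyltransferases, Crat and Cpt1a. Cpt1a, the outer membrane enzyme that sets the pace of long-chain oxidation, gave 5.31, 5.48 and 5.20 after CO2/O2 and 4.69, 5.22 and 5.30 after isoflurane. Isoflurane 1 was the low rat, and the other isoflurane rats overlapped the CO2/O2 group. The difference was -0.26 (SE 0.18, adjusted p = 0.768 in limma) and became -0.64 (unadjusted p = 0.00719, adjusted p = 0.851) within the slide row where isoflurane 1 is the lone isoflurane rat. Cpt2, the inner membrane partner, differed by -0.11 (SE 0.12). Slc25a20, the carrier between them, differed by 0.03 (SE 0.11). Crat, which makes short-chain acylcarnitines and is found in mitochondria and peroxisomes, gave 5.50, 5.69 and 5.29 after CO2/O2 and 4.72, 5.19 and 5.63 after isoflurane. Its difference was -0.32 (SE 0.24), and -0.78 within the shared slide row (unadjusted p = 0.0209, adjusted p = 0.986 in limma).

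The 4 acyl-CoA dehydrogenases, which take the first step on chains of falling length, were nearly level. Acadvl, Acadl, Acadm and Acads differed by 0.04, -0.03, 0.04 and 0.03, with standard errors of 0.08 to 0.09. Acadm, the medium-chain enzyme, read 7.44, 7.44 and 7.42 after CO2/O2 and 7.41, 7.46 and 7.54 after isoflurane. The electron carriers that drain these enzymes also lay near 0, Etfb at 0.01, Etfdh at 0.07 and Etfa at -0.13, with standard errors of 0.08, 0.17 and 0.09.

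The later steps of the spiral were level too. Hadha and Hadhb, the alpha and beta subunits of the trifunctional protein, both differed by 0.05 (SE 0.09 and 0.16). Other probes of Hadha gave -0.01 and -0.03. Hadhb stood at 4.28 in isoflurane 3 and between 3.74 and 3.92 in the other rats. Hadh, the short-chain dehydrogenase, differed by 0.01 (SE 0.09) on one probe and by -0.03 on the other. Echs1, the short-chain hydratase, differed by -0.05 (SE 0.09). Eci1, which shifts double bonds of unsaturated chains, differed by -0.06 (SE 0.13). Acaa2, the thiolase, differed by -0.14 (SE 0.13), with the isoflurane 3 spot left out as a scanner outlier. Bdh1, which makes the ketone body beta-hydroxybutyrate, differed by 0.01 (SE 0.22).

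Hadha and Hadhb are printed because their starts lie back to back, 300 bases apart on chromosome 6, so that their windows share 200 bases. The bases between the starts that fall in the window of Hadha, 250 before its start, hold no copy of the repeat with up to 2 mismatches.
Hadha and Hadhb (chr6:31907551-31907800, plus strand): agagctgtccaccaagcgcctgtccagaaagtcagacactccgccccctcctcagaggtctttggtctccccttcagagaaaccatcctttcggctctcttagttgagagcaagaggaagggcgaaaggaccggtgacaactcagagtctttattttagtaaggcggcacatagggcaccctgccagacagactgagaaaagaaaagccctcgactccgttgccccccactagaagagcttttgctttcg

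Decr1, the reductase needed for polyunsaturated chains, was the mitochondrial gene with the smallest p. It gave 7.45, 7.62 and 7.44 after CO2/O2 and 7.31, 7.16 and 7.39 after isoflurane. The groups did not overlap, though CO2/O2 3 and isoflurane 3 lay close together. The difference was -0.22 (SE 0.10, adjusted p = 0.682 in limma). Acot2, the mitochondrial thioesterase, had the largest spread of the class (SD within groups 0.49). It gave 4.57, 4.96 and 4.25 after CO2/O2 and 4.12, 4.01 and 5.09 after isoflurane, with isoflurane 3 the highest rat and the other isoflurane rats the lowest.

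Peroxisomal genes comprised a level core and a few that varied. Of the 10 genes, 9 were above the arrays' 75th percentile, as were all 3 omega-oxidation and all 8 handling genes. The 95% confidence interval stayed within 2-fold in 8 of the 10 (80%), against 90.5% of all genes. An unadjusted p under 0.05 was found in 2 (20%), against 7.58% of all genes. Among these 2 is Abcd2, which entered the test only through its CO2/O2 arrays. The median difference of the 10 was -0.02, with 5 above and 5 below 0. The thiolase Acaa1a differed by 0.05 (SE 0.09) on the brightest of its 3 probes. Its other probes varied more, at 0.10 (SE 0.19) and 0.08 (SE 0.18). Both were highest in isoflurane 3, at 7.27 and 7.76. Hsd17b4, the bifunctional enzyme of branched chains and bile acids, differed by 0.00 (SE 0.11), and by 0.14 on its second probe. Eci2, an isomerase, differed by 0.03 (SE 0.08) and had the smallest spread of all members, an SD within groups of 0.04. Acox2, the oxidase for branched chains and bile acid side chains, differed by -0.14 (SE 0.12). Abcd3, a carrier of acyl-CoA into peroxisomes, differed by -0.04 (SE 0.13).

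Crot, which makes medium-chain carnitine esters for export from peroxisomes, gave 6.32, 6.43 and 6.22 after CO2/O2 and 5.93, 5.90 and 5.62 after isoflurane. Every isoflurane rat was below every CO2/O2 rat. The difference was -0.51 (SE 0.12, 1.42-fold lower, limma adjusted p = 0.550). It was -0.39 within the shared slide row (unadjusted p = 0.0621 in limma).

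Abcd2, a carrier of very long chains whose main site is outside the liver, was the faintest member. Its signal was -4.33, -4.76 and -4.11 after CO2/O2, well above background on all 3 arrays, and -6.99, -6.38 and -5.96 after isoflurane, well above background on none. The groups did not overlap, and limma gave a difference of -2.05 (adjusted p = 0.382). Against the lowest signal well above background, the CO2/O2 mean was at least 1.1-fold higher, which is the bound that the array gives. A second probe of the gene was also well above background on 3 arrays. These were not all of 1 group, so the probe was not tested, though its mean signal was not lower. It had a difference of -0.04, with isoflurane 3 at -1.27 and the other rats from -6.93 to -4.36.

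Ehhadh, the bifunctional enzyme of straight chains and a classic PPAR alpha target, gave 4.81, 5.47 and 4.56 after CO2/O2 and 5.06, 4.54 and 5.61 after isoflurane. The groups overlapped fully, and the difference was 0.13 (SE 0.34). Pex11a, which divides peroxisomes, gave 5.32, 5.39 and 5.05 after CO2/O2 and 4.54, 4.71 and 5.45 after isoflurane. Isoflurane 3 was the highest rat and the other isoflurane rats were the lowest, with a difference of -0.35 (SE 0.25). Acot3, the peroxisomal thioesterase, had the largest spread of the class (SD within groups 0.62). It gave 0.44, 0.88 and 0.50 after CO2/O2 and 0.08, 1.12 and 1.76 after isoflurane. Its difference was 0.38 (SE 0.41).

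The 3 omega-oxidation genes were all bright and did not behave alike. Cyp4a1 gave 7.15, 7.47 and 7.03 after CO2/O2 and 6.99, 6.66 and 7.42 after isoflurane, a difference of -0.19 (SE 0.22). Cyp4a2 gave 6.83, 7.81 and 7.90 after CO2/O2 and 8.51, 7.75 and 8.21 after isoflurane. CO2/O2 1 was the low rat and isoflurane 1 the high one, and isoflurane 2 lay within the CO2/O2 range. The difference was 0.64 (SE 0.33, 1.56-fold higher, limma adjusted p = 0.712), the largest positive one of all members, and its second probe gave 0.72. Cyp4a3 gave 7.15, 7.24 and 7.19 after CO2/O2 and 7.55, 6.97 and 7.32 after isoflurane, a difference of 0.09 (SE 0.16). None of the 3 passed the test, and the interval of Cyp4a2 ran from -0.17 to 1.46.

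Cyp4a2 and Cyp4a3 are neighbours on chromosome 5 and their upstream regions are near copies, so their promoters are shown in full. Over 250 bases before each start, 236 of 255 aligned positions were identical (92.5%). Capitals mark bases that differ from the other gene or have no partner in the alignment.
Cyp4a2 (chr5:134170909-134171158, minus strand): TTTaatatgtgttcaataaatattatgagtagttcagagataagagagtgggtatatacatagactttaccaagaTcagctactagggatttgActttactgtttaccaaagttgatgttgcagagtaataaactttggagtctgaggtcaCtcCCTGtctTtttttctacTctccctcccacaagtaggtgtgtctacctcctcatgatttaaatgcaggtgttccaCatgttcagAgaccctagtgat
Cyp4a3 (chr5:134352237-134352486, minus strand): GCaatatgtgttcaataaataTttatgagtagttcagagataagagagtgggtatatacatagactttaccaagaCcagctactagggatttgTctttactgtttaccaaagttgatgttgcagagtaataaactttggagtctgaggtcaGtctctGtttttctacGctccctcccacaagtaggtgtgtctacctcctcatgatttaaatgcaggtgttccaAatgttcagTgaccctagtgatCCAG

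On the arrays, Cyp4a2 had an SD within groups of 0.50 and Cyp4a3 one of 0.21. Cyp4a8, a further rat gene of the family, followed the order of Cyp4a2, with 6.45, 7.26 and 7.36 after CO2/O2 and 8.0, 7.18 and 7.85 after isoflurane. Whether probes of these similar genes also bind each other's RNA was not tested.

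Over the members, the median SD within groups was 0.14 and the median size of the difference between groups was 0.09. The median SD within groups was 0.11 for mitochondrial, 0.16 for peroxisomal, 0.32 for omega-oxidation and 0.17 for handling genes, against 0.15 for all genes tested. The smallest were those of Eci2 at 0.04, Fabp1 at 0.04, Acadm at 0.05, Acadl at 0.05 and Etfb at 0.06. The largest belonged to Acot1 (1.68), Cd36 (0.80), Acot3 (0.62), Vnn1 (0.57) and Ehhadh (0.51). Over the 6 arrays, 22 members stayed within a range of 0.5, and 61.1% of all genes did. A range above 1 was found in 8 members and in 12.0% of all genes. These spreads are descriptions of few rats, and they were not compared at matched signal.

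**Figure D3:**
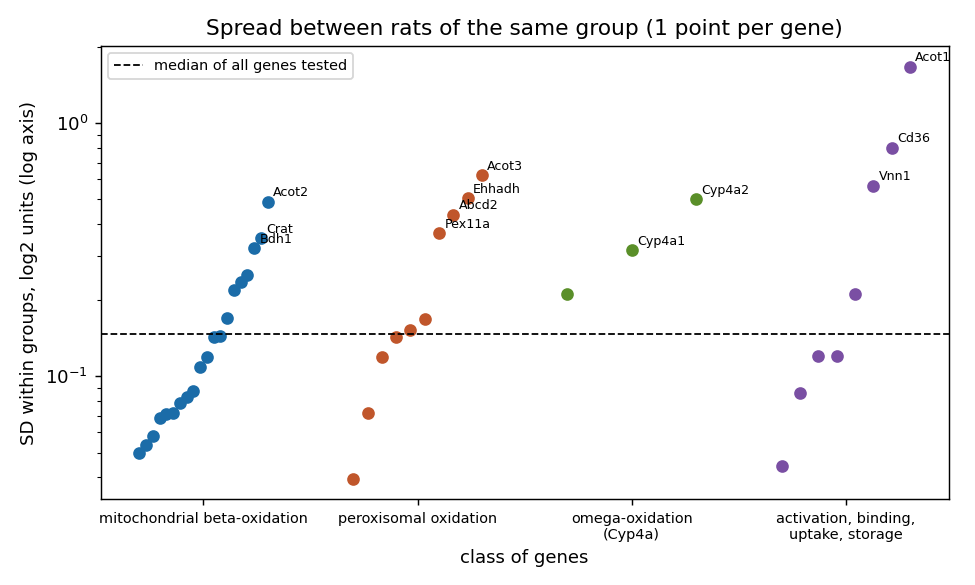
SD within groups in log2 units (y axis, log scale) for each of the 41 genes, by class (x axis), 1 point per gene in order of size within its class, from 3 rats per group; the dashed line is the median of all genes tested (0.15). Mitochondrial points lie mostly under the line (7 of 20 above it), all 3 omega-oxidation points lie above it, and Acot1 is the highest point at 1.68.

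The rats that set these ranges were often the same. Isoflurane 3 was the highest array for 16 members, against 21.0% of all genes, and CO2/O2 2 for 11, against 15% of them. Isoflurane 2 was the lowest for 14 members (23.3% of all genes) and isoflurane 1 for 11 (12.3%). The mean of the mitochondrial genes, relative to each gene's mean over arrays, was 0.01, 0.06 and 0.02 after CO2/O2 and -0.11, -0.10 and 0.14 after isoflurane. That of the peroxisomal genes was 0.10, 0.19 and 0.08 against -0.29, -0.21 and 0.13, and includes Abcd2. Their median, which a single gene moves less, was 0.00, 0.11 and 0.01 against -0.07, -0.17 and 0.10. In both classes isoflurane 1 and 2 were the lowest arrays, and isoflurane 3 lay on the side of the CO2/O2 rats. The omega-oxidation mean had another order, with -0.35, 0.11 and -0.02 after CO2/O2 and 0.29, -0.27 and 0.25 after isoflurane. Over all genes tested, the mean stayed between -0.03 and 0.02 on every array.

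**Figure D4:**
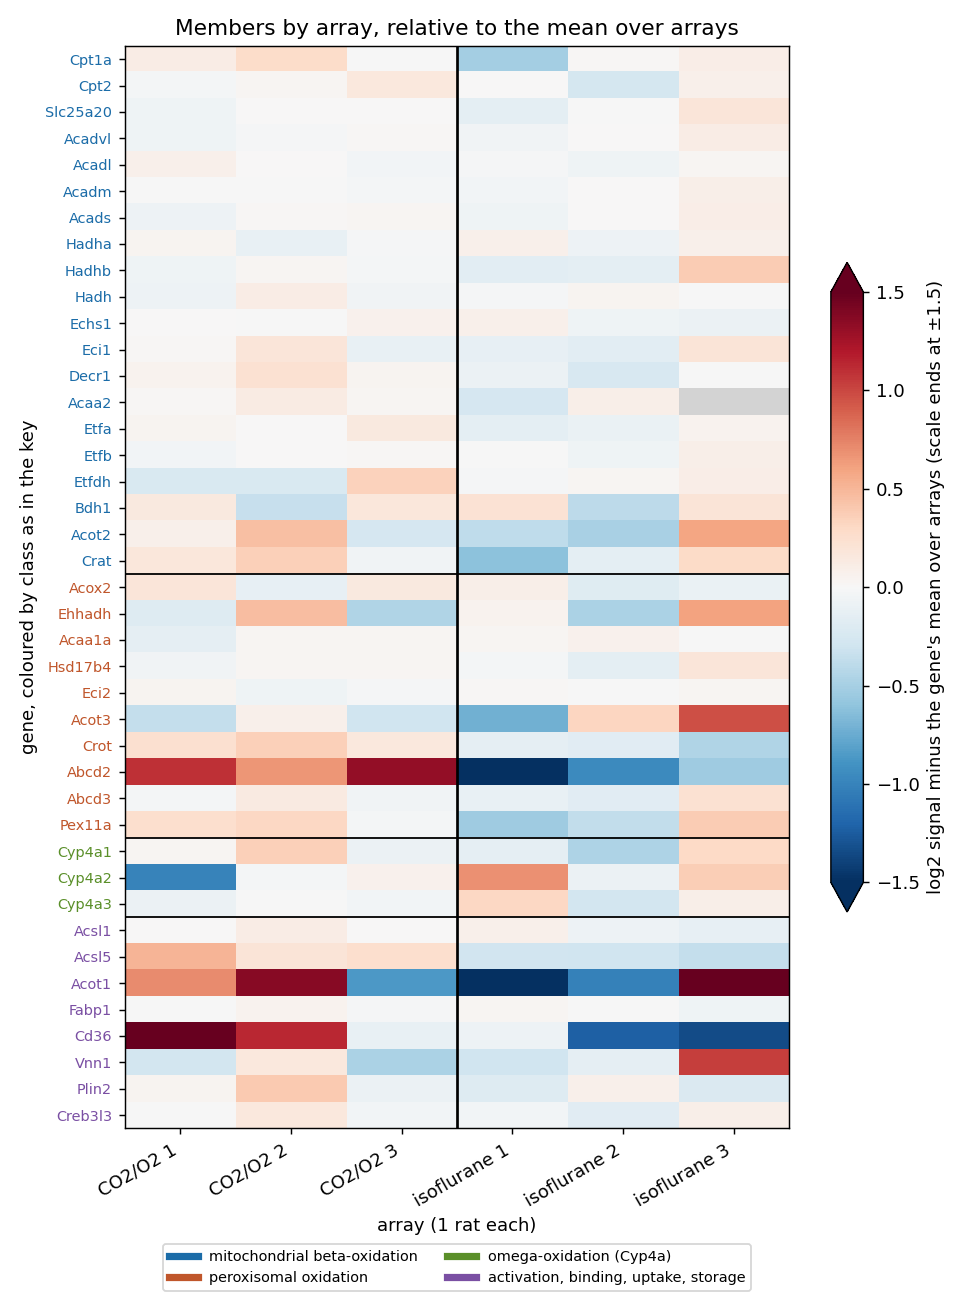
Colour map of the 41 genes (rows, in 4 classes) on the 6 arrays (columns, CO2/O2 left and isoflurane right), as log2 signal minus the gene's mean over arrays, with red above and blue below it; colours end at ±1.5, and grey marks the Acaa2 spot left out. Most mitochondrial rows are pale, Acot1 runs from dark blue in isoflurane 1 to dark red in isoflurane 3, and Cd36 runs from dark red in CO2/O2 1 to dark blue in isoflurane 3.

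Co-variation was described by Pearson correlations over the 6 arrays, which share a slide and enter every pair, so no p is given. The median over pairs was 0.33 among mitochondrial genes, 0.25 between mitochondrial and peroxisomal genes and 0.19 between mitochondrial and omega-oxidation genes, against 0.01 over all pairs of genes tested. Among the 3 Cyp4a genes it was 0.37, and among the handling genes 0.33. Among the peroxisomal genes, Abcd2 included, it was -0.04. By Spearman rank correlation the peroxisomal median was 0.14, against 0.03 over all pairs, so its sign depended on the measure. With each group's mean taken off, the medians were 0.40 among mitochondrial genes, 0.27 between mitochondrial and peroxisomal genes, -0.08 among peroxisomal genes, 0.50 among the Cyp4a genes and 0.13 among the handling genes.

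Across compartments, a set of members followed Acot1, the most variable one. Of 39 other members measured on all arrays, 7 had a correlation of at least 0.8 with it (17.9%), against 2.95% of all genes, and this measure was chosen after the values had been seen. They were Pex11a (0.96), Acot2 (0.95), Crat (0.94), Eci1 (0.94), Abcd3 (0.89), Cpt1a (0.81) and Cyp4a1 (0.81), which come from mitochondria, peroxisomes and the omega route alike. Acot1 and Acot2 are neighbours on chromosome 6, and whether their probes also bind each other's RNA was not tested. Without the arrays farthest from the median of Acot1, isoflurane 1 and 3, all 7 still had a correlation of at least 0.8 over the remaining 4. Over these 4 arrays, 33.3% of members and 12.3% of all genes reached it. The 7 had been picked on arrays that include these 4, so this was no independent check. Other variable members were treated likewise, each without its own farthest arrays. Of the members picked, 5 of 9 held for Acot2, 0 of 5 for Acot3 and 1 of 2 for Cd36, and 0 had been picked for Cyp4a2. With group means taken off, 11 members reached 0.8 with Acot1 (28.2%), against 6.23% of all genes. Acot1 itself was high in CO2/O2 2 and isoflurane 3 and low in isoflurane 1, and Cpt1a departed from it in isoflurane 2, which lay near that gene's mean. Over all 6 arrays the correlation with Acot1 was 0.17 for Cd36, 0.05 for Crot and -0.32 for Cyp4a2. Over the remaining 4 arrays it was 0.88 for Cd36, 0.85 for Crot and -0.37 for Cyp4a2.

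**Figure D5:**
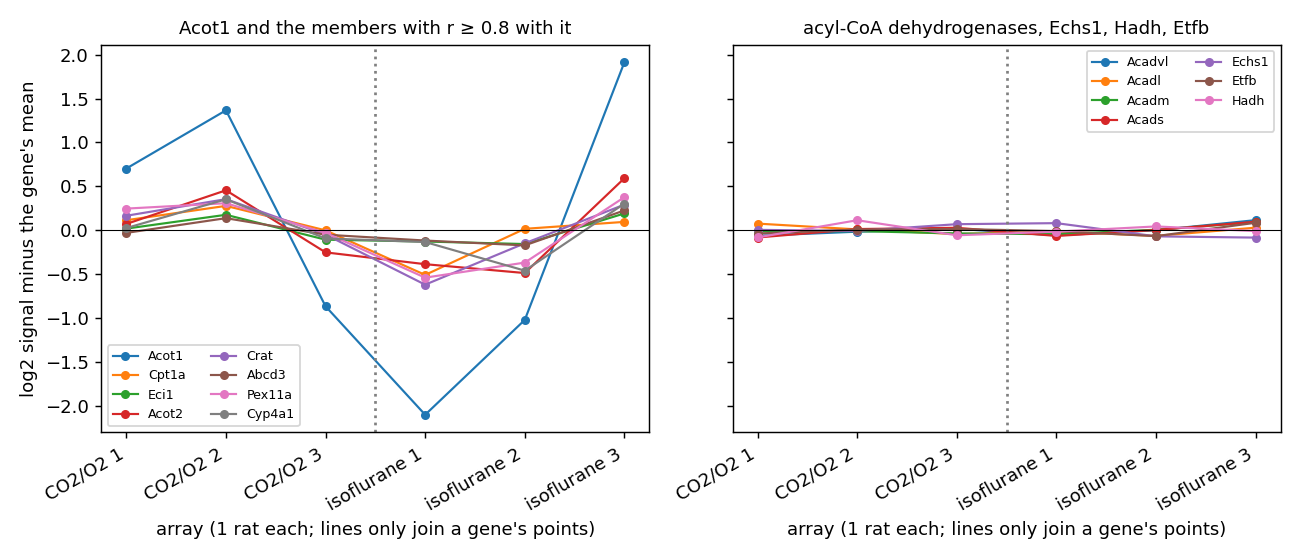
Log2 signal minus the gene's mean over arrays (y axis) on the 6 arrays (x axis, 1 rat each), on the same scale in both panels. The left panel holds Acot1 and the 7 members with a correlation of at least 0.8 with it. The right panel holds Acadvl, Acadl, Acadm, Acads, Echs1, Hadh and Etfb, mitochondrial genes picked by hand and all of low spread. Others of the class with more spread, such as Hadhb and Etfdh (SD within groups 0.22 and 0.24), are not drawn there. On the left, every gene is below its mean in isoflurane 1 and above it in CO2/O2 2 and isoflurane 3, Cpt1a lies near its mean in isoflurane 2, and Acot1 lies far outside the others; on the right all lines stay near 0.

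The receptor and its partners were described as a list of 17 genes, of which 12 had a tested probe and 0 had an adjusted p under 0.05. At an unadjusted p under 0.05, 2 were higher and 0 lower, against 2.72% and 4.85% of all genes. The median difference of the list was 0.03. Ppara itself gave 0.85, 1.18 and 1.60 after CO2/O2 and 1.75, 1.80 and 1.97 after isoflurane. The groups did not overlap, the difference was 0.63 (SE 0.20, adjusted p = 0.597 in limma), and the values were higher toward the last place on the slide. Ppard, the delta receptor, differed by -0.22 (SE 0.11).

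Other known PPAR alpha targets showed 6 positive and 22 negative differences among 28 tested, with a median of -0.12. Of all genes, 47.1% had a positive difference, and the median was -0.01. At an unadjusted p under 0.05, 0 targets were higher and 3 were lower, against 2.72% and 4.85% of all genes, and 0 passed the adjusted test. Retsat, which saturates retinol, was the widest of these at 5.88, 6.69 and 6.30 after CO2/O2 and 3.76, 4.01 and 5.69 after isoflurane. All isoflurane rats were below all CO2/O2 rats, isoflurane 3 least so, and the difference was -1.80 (SE 0.52, adjusted p = 0.583 in limma). Fabp2 differed by -0.53 (SE 0.21) and Aqp9, a glycerol channel, by -0.31 (SE 0.13). Fgf21, a fasting hormone, had an SD within groups above that of 99.7% of all genes, as did Acot1, and was highest in isoflurane 3 at 4.75.

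Other mitochondrial oxidation genes had 0 higher and 1 lower of 18 at an unadjusted p under 0.05. Among them, Oxct1 differed by -0.33 (SE 0.14) and Slc22a5, a carnitine carrier, by -0.50 (SE 0.23). A list drawn up as other peroxisomal oxidation genes had 1 higher and 3 lower of 24. These included Amacr, a racemase of branched chains (-0.46, SE 0.12), Abcd4 (-0.34, SE 0.11) and the thioesterase Acot5 (-1.94, SE 0.66). Whether Abcd4 takes part in peroxisomal oxidation was not tested. Peroxins, which build peroxisomes, had 0 higher and 1 lower of 15, led by Pex19 (-0.24, SE 0.08), Pex3 (-0.23, SE 0.10) and Pex6 (-0.15, SE 0.08). Other omega-oxidation genes had 0 of 13, with Adh7 at -0.53 (SE 0.25), Cyp4a8 at 0.65 (SE 0.32) and Cyp4f17 at -0.36 (SE 0.22). In each of these lists 0 genes had an adjusted p under 0.05. Over all genes tested, 2.72% were higher and 4.85% lower at an unadjusted p under 0.05.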

How the data were processed

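Scanner images were quantified in Agilent Feature Extraction 10.7, per the submitters' processing notes. The deposited spot values are intensity on a linear scale, corrected for background and not scaled between arrays, per the file headers. The authors' value table holds a ratio: set against the scanner output, each column is the processed intensity divided by 1 number per array near its 75th percentile, with column medians from 0.0864 to 0.0917, no log and no centring. Here the 75th percentile of an array's non-control probes was subtracted on the log2 scale, and the 177 outlier spots were left out.

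Testing required signal well above background in all 3 rats of either group. limma 3.58.1 in R 4.3.3 (lmFit, eBayes) compared the groups over 34637 probes. A gene took its tested probe with the highest mean. Where a gene was not above background in a group, the bound sets the brighter mean against, per array, whichever is higher, the dim signal itself or the lowest one well above background. In 20 simulated datasets of this comparison, 74% of 2-fold and 95.7% of 4-fold changes were recovered, with 5.5% false calls. Each dataset had independent normal noise and 100 planted changes of each size, none in the faintest probes. The shares therefore check the fit and are not the power for any member. Python 3.11.15, pandas 2.3.3 and Biopython 1.88 (promoter alignment) were also used. The 27460 probes that matched 1 gene were named through RefSeq for GRCr8, 34197 were unnamed, and array headers name rn4. Precision is limited by 3 arrays per group.

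The members and lists were chosen with earlier results of these data known. Every member was named. Values per rat are given for those with an unadjusted p under 0.05 or groups that did not overlap, the 2 smallest p values and largest SD of each class, all Cyp4a members and any below background. Of other lists, up to 3 genes by smallest p are given, most as a difference with its SE. Vnn1, Ehhadh, Pex11a, Crat, Acadm and Fgf21 were described further after their values were seen. Some genes that the rule takes are not reported here. Alternatives were normexp with an offset of 50, quantile and median scaling, the authors' table, other filters, outliers kept, eBayes with trend and robust, blocks for replicate number and slide row, the mean of a gene's probes, another class for Crat and Bdh1, and each array left out.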

Additional observations from a re-analysis of the deposited data

How the results depend on the processing

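The number of members with an adjusted p under 0.05 in limma was 0 in all settings run, and the class medians kept to within the spread between rats. At an unadjusted p under 0.05 the count was 4, and leaving out 1 array gave 3 to 7, the 7 without isoflurane replicate 3, when 4.35% to 9.9% of all genes were counted. It was 3 with no filter or with all 6 arrays above background, and 5 with median centring or with eBayes trend and robust. Members whose groups did not overlap were 4, became 7 with median centring (18.4% of all genes then), and ranged from 5 to 14 with an array left out, when 21.2% to 28.8% of all genes were counted. The count was 7 when CO2/O2 replicate 3 was left out, and 9, 10 and 14 when isoflurane replicate 1, 2 or 3 was. With fewer arrays, groups separate more easily. Of the 41 members, 14 kept the sign of their difference in every setting. Same-numbered rats did not deviate together in all pairs (correlations 0.11, 0.02 and 0.06), so the numbers were not taken as pairs, and with the replicate block the same 4 members had an unadjusted p under 0.05. With the slide row block these were Abcd2, Acsl5, Cpt1a and Crat. Without CO2/O2 replicate 2, the other probe stood for Abcd2, at -0.25. Blocks for slide and scan time were not run, since all arrays share both.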
